A study of Mus musculus with 2 samples.

Results

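The vascular endothelial growth factor (VEGF) system was followed through 8 genes, chosen by symbol and present once each among the 27998 genes of both matrices: the 3 receptor genes Flt1, Kdr and Flt4, the 2 neuropilin genes Nrp1 and Nrp2, and the 3 ligand genes Vegfa, Vegfb and Vegfc. Cells carrying yellow fluorescent protein under Cx3cr1, a gene strongly used by microglia, were sorted from dissociated spinal cords of C57BL/6J mice and counted by 10x Chromium 3′ sequencing. One library was labelled Runx1 knock-out and came from Cx3cr1-CreERT2-YFP::flxRunx1 mice given 1 mg of tamoxifen a day on 5 days. The other was labelled wild type, came from mice with the same strain label and received vehicle, so the knock-out and tamoxifen cannot be told apart. Both were taken 4 weeks after the first injection, and ages and the number of animals pooled per library are not given in the sources used here. With 1 library per group (n = 1 each) no test was possible, and the intervals below, all at 95%, cover counting error only.

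In the VEGF system, secreted ligands bind receptor tyrosine kinases that are best known from endothelial cells. Kdr (VEGF receptor 2) is the main signalling receptor for Vegfa. Flt1 (VEGF receptor 1) binds Vegfa and Vegfb with high affinity but signals weakly, and its soluble form traps ligand. Flt4 (VEGF receptor 3) binds Vegfc and is best known from lymphatic vessels, and the neuropilins Nrp1 and Nrp2 are co-receptors that also bind class 3 semaphorins. Nrp1 is known from arterial and Nrp2 from venous and lymphatic endothelium during development.

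The genes lie on 6 mouse chromosomes of GRCm38 (GENCODE M21). Flt1 spans 147561604 to 147726011 and Kdr 75932827 to 75978458, both on the minus strand of chromosome 5. Flt4 spans 49609263 to 49652739 on the plus strand of chromosome 11. Nrp1 spans 128358604 to 128503363 and Vegfc 54077606 to 54187096, both on the plus strand of chromosome 8. Nrp2 spans 62703285 to 62818695 on the plus strand of chromosome 1, Vegfa 46016993 to 46032369 on the minus strand of chromosome 17, and Vegfb 6982473 to 6987651 on the minus strand of chromosome 19. Gm37121 overlaps Nrp2 and Mir1903 overlaps Nrp1 on the same strand, neither counted separately in the files, and Gm29083 overlaps Nrp2 on the other strand.

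Flt1 and Kdr had the most UMIs (unique molecular identifiers, 1 per captured molecule) of the 3 receptors, and the sequences upstream of their starts are shown because their levels set the receptor results. They are the 250 bases before the RefSeq start (GRCm38.p6), read on the gene's own strand, with GGAA or its reverse complement TTCC, the core motif of ETS factors, in capitals.
Flt1, chr5:147726012-147726261, minus strand: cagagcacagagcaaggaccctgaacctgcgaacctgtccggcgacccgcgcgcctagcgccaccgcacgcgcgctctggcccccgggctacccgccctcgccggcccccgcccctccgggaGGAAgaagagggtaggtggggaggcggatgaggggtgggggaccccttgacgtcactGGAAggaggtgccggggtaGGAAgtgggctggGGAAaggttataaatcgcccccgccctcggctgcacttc
Kdr, chr5:75978456-75978705, minus strand: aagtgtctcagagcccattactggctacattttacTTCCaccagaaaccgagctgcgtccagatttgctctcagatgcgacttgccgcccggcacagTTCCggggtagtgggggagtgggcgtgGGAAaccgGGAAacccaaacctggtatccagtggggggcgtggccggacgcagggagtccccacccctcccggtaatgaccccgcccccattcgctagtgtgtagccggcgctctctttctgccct
Both windows held 4 matches of GGAA on either strand. Of 32851 RefSeq promoter windows of that length, 93.4% held at least 1 match and 33.4% held 4 or more. The Flt1 window also held the cyclic AMP response element TGACGTCA, found in 1.55% of windows, and the Kdr window did not. Flt1 had 3 and Kdr 2 matches of GGGCGG on either strand, which 32.7% of windows held at least once, and neither had ACGTG on either strand, found in 16.6%. All 8 genes matched the RefSeq table, and TGACGTCA was searched after the Flt1 sequence had been read.

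The library labelled knock-out held 2604 barcodes and 13075939 UMIs, with a median of 3716 per barcode, and the wild-type library 4582 barcodes and 37446978 UMIs, with a median of 6376. The labels give 2600 and 4500 recovered cells. The filter removed 8 barcodes from the library labelled knock-out and 0 from the wild-type library, and 9 barcode sequences occurred in both. Clustering gave 1354 and 2181 microglia-like cells and, although the sort was for Cx3cr1 fluorescence, 844 and 1631 endothelial-like cells, in the same order of libraries. These classes lay in clusters of nearly 1 library each: 1352 of the microglia-like cells labelled knock-out were in a cluster with 0 wild-type cells. Runx1 was at 181 CPM (UMIs of a gene, scaled to a class total of 1e6) in microglia-like cells labelled knock-out and 92.8 CPM in those labelled wild type. These 3′ tags do not check the label, since the deleted part of Runx1 is not named.

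RNA of other cells was measurable in every class. The 9 endothelial markers summed to 2023 CPM in microglia-like cells labelled knock-out and 6286 CPM in those labelled wild type, against 20747 and 19919 CPM in endothelial-like cells. The 12 microglia markers summed to 5694 CPM in endothelial-like cells labelled knock-out and 14798 CPM in those labelled wild type. Lymphatic markers were near 0 in endothelial-like cells: Ccl21a had 0 UMIs in both libraries, Lyve1 had 1 and 2 and Prox1 had 5 and 35, knock-out label before wild type.

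The 3 receptors had their highest levels in endothelial-like cells among the 5 classes in the plot of levels by class and library. Flt1 stood at 2316 CPM (2269 to 2363) in endothelial-like cells labelled knock-out and 1640 CPM (1617 to 1663) in those labelled wild type, and at 184 and 442 CPM in microglia-like cells. Kdr stood at 358 CPM (340 to 377) and 321 CPM (311 to 331) in endothelial-like cells, and at 37.1 and 111 CPM in microglia-like cells, in the same order. Flt4 was lower, at 31.7 CPM (26.4 to 37.7) in endothelial-like cells labelled knock-out and 29.7 CPM (26.7 to 33.0) in those labelled wild type. Its log2 ratio of pericyte-like over endothelial-like cells was -0.78 (-1.94 to 0.19) with the knock-out label and -0.07 (-0.65 to 0.46) in wild type. These classes thus did not differ in Flt4 beyond their intervals. UMIs count 3′ ends once per molecule, so these levels carry no scaling by gene length, and capture may differ between genes.

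With every cell thinned to 1500 UMIs, a Flt1 UMI was seen in 95.1% (exact Clopper-Pearson interval 93.5 to 96.5) of endothelial-like cells labelled knock-out and 89.9% (88.4 to 91.4) of those labelled wild type. Before thinning these shares were 99.2% and 99.4%, and the median cell had 3606 and 5932 UMIs. In microglia-like cells the thinned Flt1 share was 24.2% (22.0 to 26.6) in the library labelled knock-out and 48.6% (46.5 to 50.7) in wild type. A Kdr UMI was seen in 37.3% (34.0 to 40.7) of endothelial-like cells labelled knock-out and 35.4% (33.1 to 37.8) of those labelled wild type. Flt1 and Kdr occurred together in 35.2% of thinned endothelial-like cells labelled knock-out and 31.9% of those labelled wild type.

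The neuropilins differed from each other in where they were found. Nrp1 followed the receptors, with 308 CPM (291 to 326) in endothelial-like cells labelled knock-out and 258 CPM (249 to 268) in those labelled wild type, and 64.2 and 106 CPM in microglia-like cells. Nrp2 was spread more evenly, with 60.4 CPM (53.0 to 68.5) and 51.3 CPM (47.3 to 55.6) in endothelial-like cells and 35.5 CPM (31.0 to 40.5) and 33.2 CPM (30.5 to 36.2) in microglia-like cells. In microglia-like cells, Nrp1 was counted 1.81 times for each Nrp2 UMI in the library labelled knock-out and 3.19 times in wild type, against 5.11 and 5.03 times in endothelial-like cells.

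Ligand UMIs were few. No cluster was named astrocyte or neuron, and astrocyte markers summed to 63.2 and 70.3 CPM over all cells, knock-out label before wild type. Ligand levels of such cells were therefore not measured. Vegfa, the main angiogenic ligand, had 21 UMIs in microglia-like cells labelled knock-out and 38 in those labelled wild type, and 3 and 11 in endothelial-like cells. Vegfb was at 16.9 CPM (13.8 to 20.5) in microglia-like cells labelled knock-out and 16.8 CPM (14.9 to 19.0) in those labelled wild type, above its 9.90 CPM (7.07 to 13.5) and 10.9 CPM (9.09 to 12.9) in endothelial-like cells. Among the 5 plotted classes its highest value was in ependymal-like cells, at 61.6 CPM (32.8 to 105) and 28.4 CPM (12.2 to 55.9), resting on 13 and 8 UMIs from 28 and 19 cells. Vegfc, the Flt4 ligand, was at 26.5 CPM (21.7 to 32.0) and 26.8 CPM (23.9 to 29.9) in endothelial-like cells and at 136 CPM (97.4 to 186) and 83.9 CPM (65.9 to 105) in smooth muscle-like cells, from 54 and 94 cells.

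**Figure D1:**
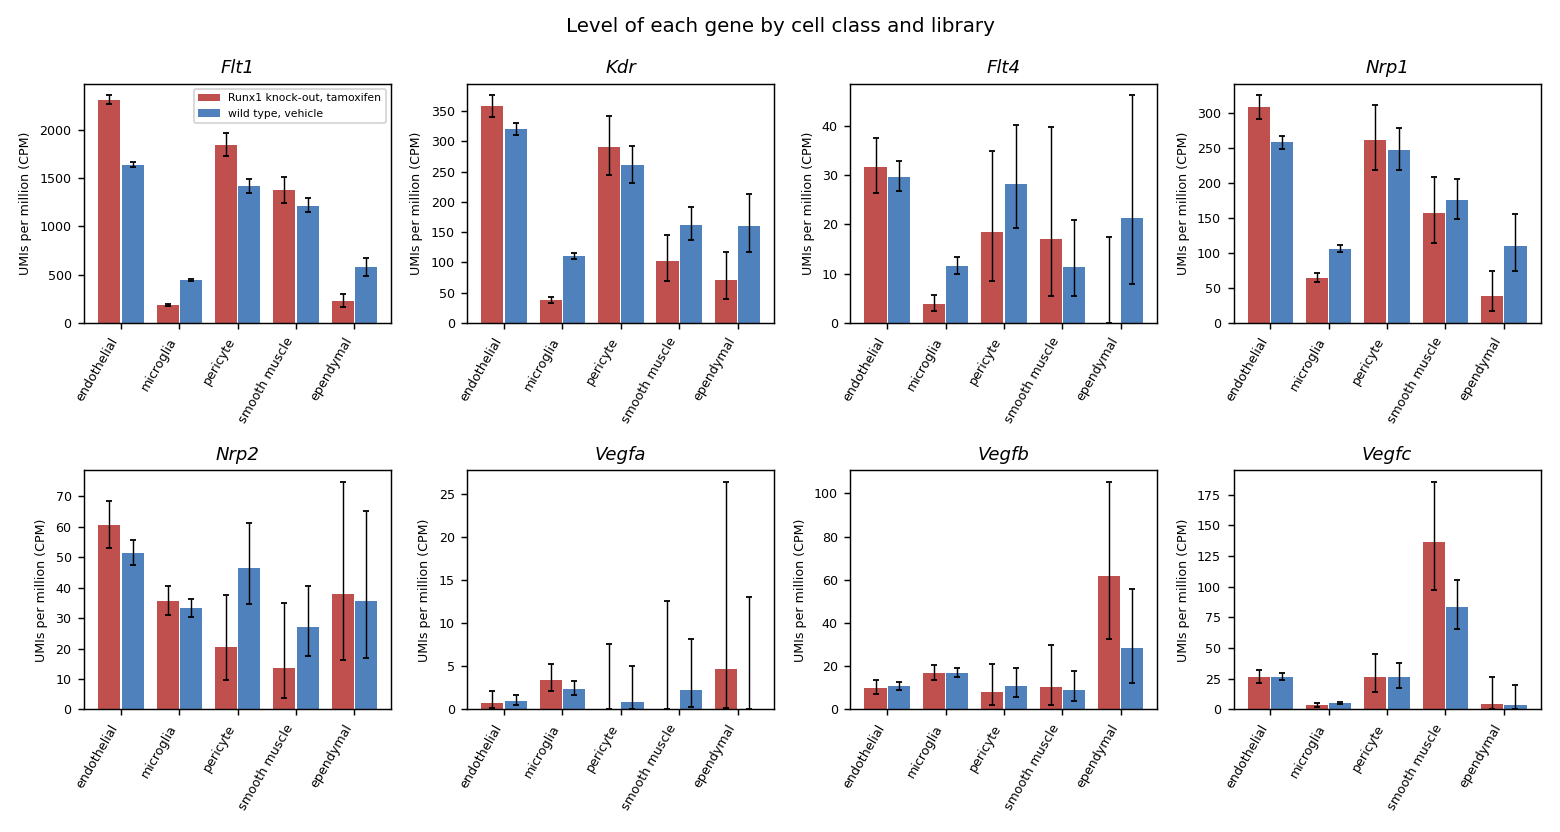
Level of each gene in CPM (counts scaled to a class total of 1e6), by cell class on the x axis, with the library labelled Runx1 knock-out in red and the wild-type library in blue; bars are 1 library each and error bars are exact Poisson 95% intervals of the count. Flt1 and Kdr are highest in endothelial-like cells (Flt1 2316 and 1640 CPM), whereas Vegfc is highest in smooth muscle-like cells at 136 and 83.9 CPM. Endothelial-like and pericyte-like cells do not differ in Nrp1 beyond the counting intervals of their ratio.

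Pericyte-like cells held Flt1 at 1849 and 1420 CPM, Kdr at 290 and 261 CPM and Nrp1 at 262 and 247 CPM, knock-out label before wild type. These stood at 1.10 and 1.16 times (Flt1), 1.12 and 1.09 times (Kdr) and 1.17 and 1.28 times (Nrp1) the level that the endothelial markers of the same cells would carry at the ratio seen in endothelial-like cells. The same ratio was 12.4 and 5.87 times for Vegfc in smooth muscle-like cells, where those markers summed to 8614 and 10635 CPM. Set against the ratio of arterial-like endothelial cells, with the same endothelial markers, it was 2.66 and 1.71 times. Arterial markers, not used for these values, summed to 2654 and 1576 CPM in smooth muscle-like cells. In arterial-like cells they were lower, at 1498 and 1010 CPM.

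Set beside the ligands, receptors were the more abundant transcripts in endothelial-like cells. The 3 receptors summed to 10932 UMIs and the 3 ligands to 150 in the library labelled knock-out, or 72.9 receptor UMIs per ligand UMI (62.0 to 86.2), against 23575 and 457 in wild type, or 51.6 (47.0 to 56.7). In microglia-like cells the ratio was 9.38 (7.91 to 11.2) in the library labelled knock-out and 23.1 (20.8 to 25.6) in wild type. In smooth muscle-like cells it was 10.2 (7.44 to 14.3) and 14.6 (11.7 to 18.4). Between the libraries the receptors of microglia-like cells differed by a log2 ratio of -1.33 (-1.41 to -1.25). The endothelial markers of these cells, given above, were also lower with the knock-out label, and a link was not tested.

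Between the libraries, receptors and neuropilins in endothelial-like cells differed by less than 2-fold. All 5 log2 ratios were above 0 (higher with the knock-out label), as were 61.4% of all measured genes. The log2 ratio was 0.50 (0.46 to 0.53) for Flt1, 0.16 (0.07 to 0.24) for Kdr and 0.09 (-0.21 to 0.39) for Flt4. It was 0.26 (0.16 to 0.35) for Nrp1 and 0.23 (0.01 to 0.45) for Nrp2. Vegfc differed by -0.02 (-0.35 to 0.31). The median over the 6312 genes at 20 CPM or more in 1 library was 0.09, and Flt1 lay at percentile 91.2 of them, Nrp1 at 70.8, Nrp2 at 68.0, Kdr at 58.4, Flt4 at 50.2 and Vegfc at 37.2.

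At the 2-fold threshold, 0 of the 6 members measured in endothelial-like cells were higher and 0 lower, beside 0.697% of all genes higher and 2.79% lower; Vegfa and Vegfb lay under 20 CPM. The microglia markers in these cells stood at 5694 CPM in the library labelled knock-out and 14798 CPM in wild type. When background RNA composed like the library as a whole was subtracted, at shares of 22.2% and 51.8% that are upper estimates because every UMI of those markers was assigned to background, the log2 ratios became 0.20 for Flt1, 0.01 for Nrp1, 0.06 for Nrp2, -0.11 for Kdr, -0.18 for Flt4 and -0.35 for Vegfc. Only Flt1 then kept a log2 ratio above 0.1. Per endothelial marker UMI, the Flt1 ratio was 0.44.

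In microglia-like cells the directions were opposite for 3 of these genes. The log2 ratio was -1.27 (-1.36 to -1.18) for Flt1, -1.58 (-1.78 to -1.38) for Kdr and -0.72 (-0.89 to -0.56) for Nrp1, and 0.09 (-0.14 to 0.33) for Nrp2. Of the 4 members measured there, 0 were 2-fold higher and 2, Flt1 and Kdr, were 2-fold lower, beside 1.79% and 5.34% of 5747 genes. Flt4 had 23 UMIs in the library labelled knock-out and 181 in wild type, at 3.75 and 11.5 CPM, under the 20 CPM minimum. The endothelial markers in the same cells stood at 2023 and 6286 CPM.

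**Figure D2:**
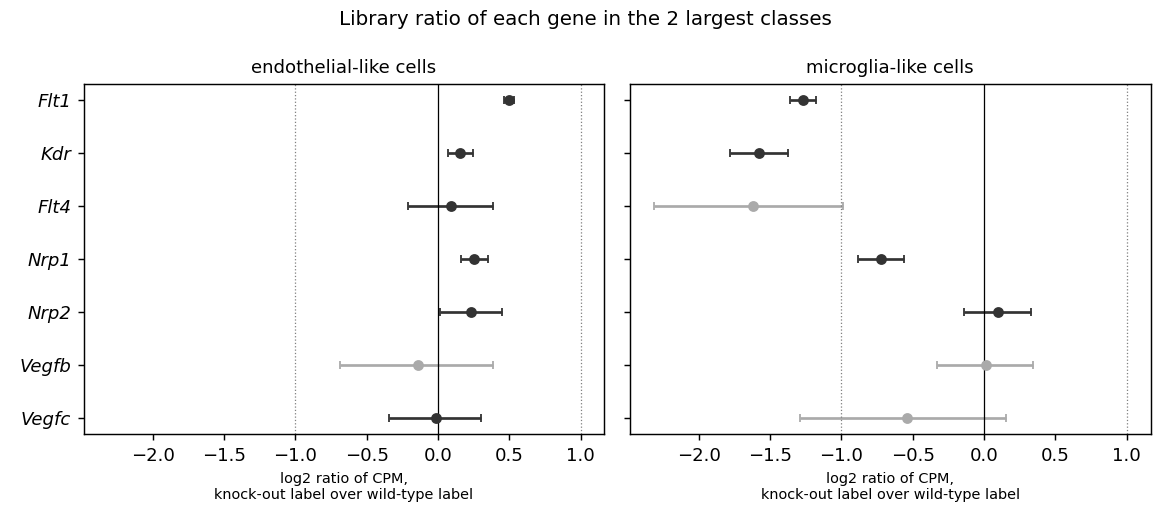
Log2 ratio of CPM, library labelled Runx1 knock-out over wild-type library, for 7 genes in endothelial-like cells (left) and microglia-like cells (right); points are the ratio, bars the exact 95% counting interval, grey points lie under 20 CPM in both libraries, dotted lines mark 2-fold and Vegfa is left out for its few UMIs. Flt1 is at 0.50 on the left and -1.27 on the right, and Nrp2 is at 0.23 and 0.09.

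Set against endothelial marker UMIs, the receptors of microglia-like cells lay close to the ratio of endothelial-like cells in both libraries. Flt1 reached 0.81 times the level at that ratio in the library labelled knock-out and 0.85 times in wild type, Kdr 1.06 and 1.09 times and Flt4 1.21 and 1.23 times. Nrp1 reached 2.13 and 1.30 times. Nrp2, at 6.03 and 2.05 times, and Vegfb, at 17.5 and 4.89 times, lay further above it. Vegfc was at 1.39 and 0.62 times, on 22 and 82 UMIs.

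**Figure D3:**
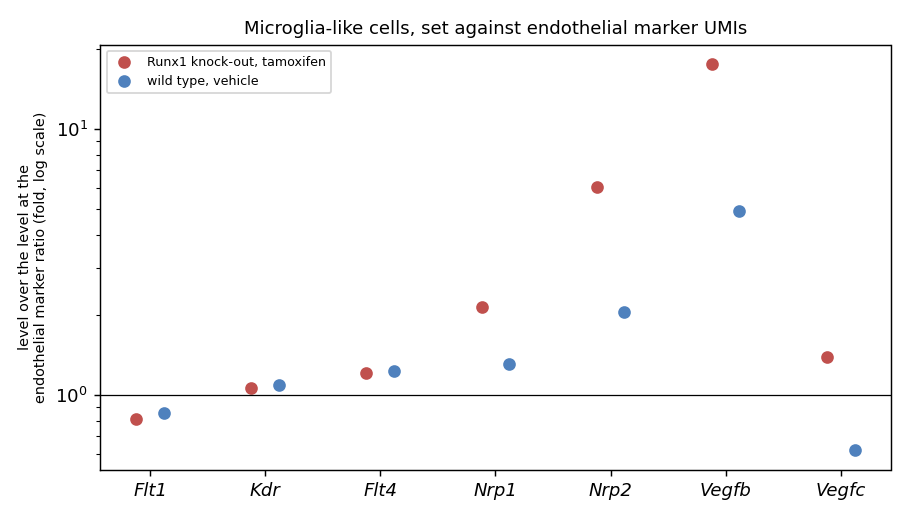
Level of 7 genes in microglia-like cells divided by the level that the endothelial markers of these cells would carry at the ratio seen in endothelial-like cells of the same library (y axis, fold, log scale), with the library labelled Runx1 knock-out in red and the wild-type library in blue. Flt1, Kdr and Flt4 lie between 0.81 and 1.23, and Nrp2 and Vegfb between 2.05 and 17.5.

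Within the endothelium, cells were divided by vessel markers into arterial-like (144 and 283 cells), capillary-like (560 and 1051) and venous-like cells (22 and 31), knock-out label before wild type, with 118 and 266 endothelial-like cells left outside these 3. The 8 genes were not used to divide them, but the resolution of 1.0 was chosen over 0.5 after the genes' levels under both had been seen. Venous-like cells were deep, at medians of 11632 and 16070 UMIs, against 3064 and 4691 in capillary-like cells.

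Vegfc was concentrated in arterial-like cells. It stood at 115 CPM (91.7 to 142) with the knock-out label and 87.5 CPM (76.0 to 100) in wild type, against 9.39 CPM (5.74 to 14.5) and 13.04 CPM (10.3 to 16.2) in capillary-like cells. The log2 ratio of arterial-like over capillary-like cells was 3.61 (2.90 to 4.40) in the library labelled knock-out and 2.75 (2.37 to 3.14) in wild type. It was between 3.54 and 4.55 and between 2.53 and 4.25 under the 11 alternatives of clustering, cell filter, scaling, depth and background subtraction, the last of which gave the 4.25. Venous-like cells had 1 and 6 Vegfc UMIs. Smooth muscle-like and arterial-like cells did not differ in Vegfc beyond their intervals, at a log2 ratio of 0.25 (-0.34 to 0.80) and -0.06 (-0.46 to 0.33).

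Nrp2 was highest in venous-like cells, at 239 CPM (183 to 307) with the knock-out label and 212 CPM (174 to 257) in wild type. It was at 34.3 and 33.9 CPM in capillary-like cells and at 13.7 CPM (6.56 to 25.2) and 22.8 CPM (17.1 to 29.8) in arterial-like cells. The 118 and 266 endothelial-like cells outside these vessel classes held Nrp2 at 107 CPM (87.3 to 131) and 84.4 CPM (74.1 to 95.8). They had 99 and 240 Nrp2 UMIs, against 62 and 106 in venous-like cells, so Nrp2 above the capillary-like level was not particular to venous-like cells. The log2 ratio of venous-like over capillary-like cells was 2.80 (2.29 to 3.31) and 2.65 (2.30 to 2.99). Its size depended on which cells were called venous-like: at the vessel resolution of 0.5, with 87 and 157 such cells, it was 1.94 and 1.61. With both libraries clustered at resolution 1.0 it was 2.02 and 0.77, and with each library clustered on its own 2.24 and 1.14.

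The receptors were found in all 3 vessel classes. Flt1 was at 2729 CPM (2611 to 2852) in arterial-like, 2373 CPM (2308 to 2439) in capillary-like and 1709 CPM (1553 to 1876) in venous-like cells with the knock-out label, and at 2005, 1584 and 1395 CPM in wild type, in the same vessel order. The order of the 3 was the same in both libraries and neighbouring intervals did not overlap. Kdr ran otherwise, at 250, 389 and 336 CPM with the knock-out label and 285, 316 and 323 CPM in wild type. Its arterial-like over capillary-like log2 ratio was -0.64 (-0.88 to -0.40) and -0.15 (-0.28 to -0.02), and venous-like and capillary-like cells did not differ in Kdr beyond their intervals.

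Flt1 was therefore counted 10.9 times per Kdr UMI (9.36 to 12.7) in arterial-like cells labelled knock-out and 7.04 times (6.49 to 7.64) in those labelled wild type, against 6.09 and 5.01 times in capillary-like and 5.09 and 4.32 times in venous-like cells. Nrp1 was lower in arterial-like than in capillary-like cells, at a log2 ratio of -0.83 (-1.09 to -0.57) and -0.33 (-0.47 to -0.19). Flt4 was at 28.7 and 22.4 CPM in arterial-like, 33.8 and 32.6 CPM in capillary-like and 19.3 and 18.0 CPM in venous-like cells. Its arterial-like over capillary-like log2 ratio was -0.23 (-1.01 to 0.48) with the knock-out label and -0.54 (-1.01 to -0.10) in wild type.

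Receptors per ligand UMI were lower in arterial-like than in capillary-like cells. They were 153 (112 to 215) and 79.6 (67.7 to 94.2) in capillary-like cells, against 24.7 (19.98 to 30.9) and 22.5 (19.8 to 25.7) in arterial-like cells, where Vegfc supplied 84 of 89 and 207 of 243 ligand UMIs. In venous-like cells they were 107 (45.6 to 331) and 66.6 (38.7 to 126), on 5 and 13 ligand UMIs, and these intervals hold the capillary-like values. Between the libraries, capillary-like cells had log2 ratios of 0.58 (0.53 to 0.63) for Flt1, 0.30 (0.18 to 0.42) for Kdr and 0.36 (0.24 to 0.49) for Nrp1. Arterial-like cells had 0.44 (0.37 to 0.52) for Flt1, -0.19 (-0.43 to 0.05) for Kdr and -0.13 (-0.41 to 0.14) for Nrp1. With the upper estimate of background subtracted, capillary-like cells had 0.31 for Flt1, 0.057 for Kdr and 0.094 for Nrp1, and arterial-like cells 0.066 for Flt1, -0.43 for Kdr and -0.33 for Nrp1. The Nrp1 ratio of arterial-like cells was 0.012 at the vessel resolution of 0.5. The difference between the vessel classes was not tested.

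**Figure D4:**
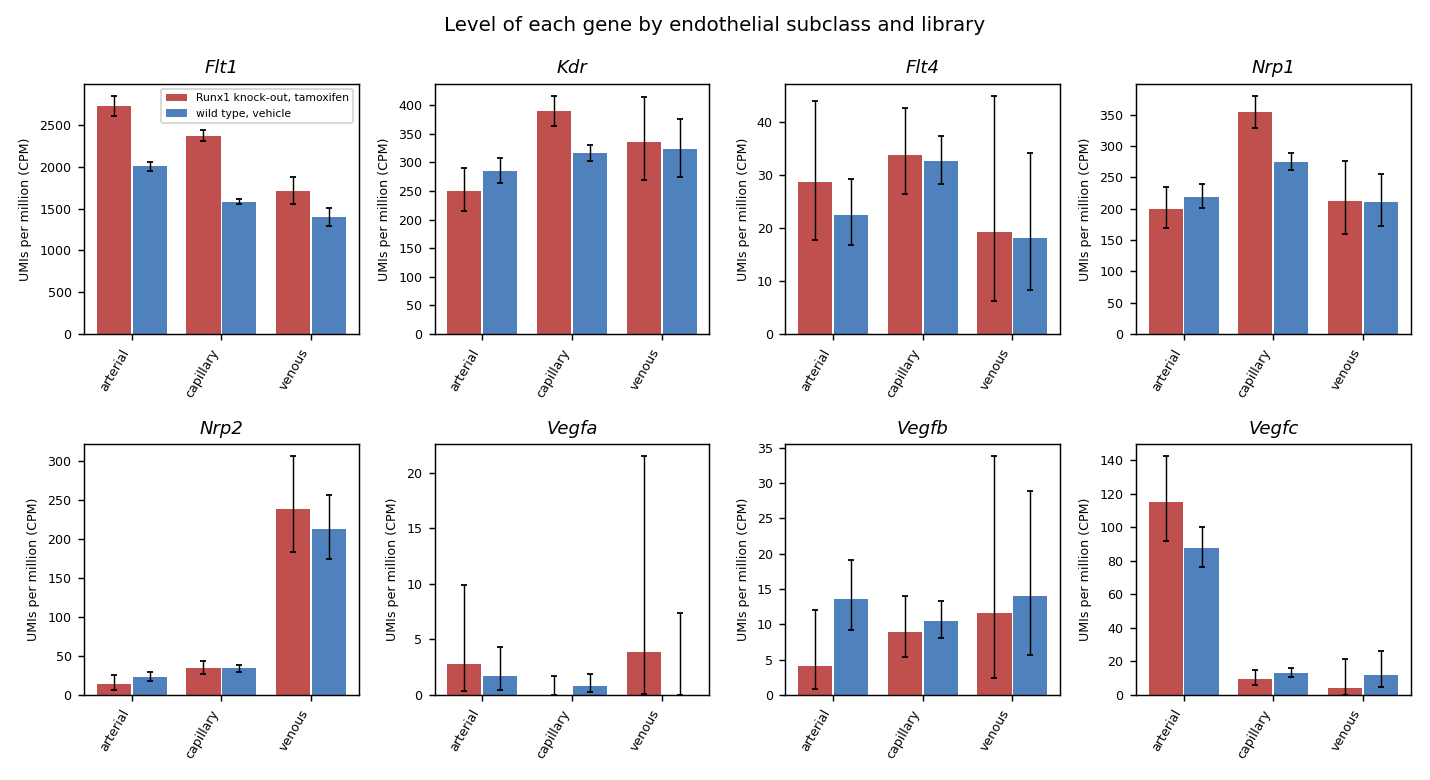
Level of each gene in CPM in arterial-like, capillary-like and venous-like endothelial cells (x axis), with the library labelled Runx1 knock-out in red and the wild-type library in blue; bars are 1 library each and error bars exact Poisson 95% intervals. Vegfc is at 115 and 87.5 CPM in arterial-like cells, and Nrp2 at 239 and 212 CPM in venous-like cells. Endothelial-like cells outside these classes, with Nrp2 at 107 and 84.4 CPM, are left out.

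Genes with the most similar profile were found among 8236 genes by Pearson's r of log2(CPM + 10) over 16 class and library combinations of at least 50 cells, which share libraries and nested cells, so r is a description. Vegfc was most like Bmx (r = 0.97), Egfl8 (0.97) and the semaphorin gene Sema3g (0.96), all 3 among the leading genes of the arterial-like cluster. Bmx is also 1 of the arterial markers used to name that cluster. Flt1 was most like Sdpr, Cyyr1 and Sgms1 (r = 0.99, 0.99 and 0.98) and Kdr most like Slc7a1, Pglyrp1 and Itm2a (0.99 each), Itm2a being 1 of the endothelial markers. Nrp1 was most like Igf1r, Hmcn1 and Ccdc141 (0.97 each), and Flt4 most like Vat1, Afap1l1 and Gdpd5 (0.96, 0.95 and 0.94). Nrp2 had lower values, with Chn2, C530008M17Rik and Dapl1 (0.89, 0.84 and 0.83), as did Vegfb, with Dpy19l4, Ptp4a2 and Rps28 (0.87, 0.85 and 0.83). Vegfa had 84 UMIs in all and was not compared.

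Other genes of the pathway that were measured in endothelial-like cells also differed between the libraries by less than 2-fold, mostly toward the knock-out label. Of the 15 receptor partners and first signalling steps, 9 were measured and all 9 had log2 ratios above 0, beside 61.4% of all measured genes. Their median was 0.41, against 0.09 over all genes. They were led by the kinase genes Yes1 at 0.88 (0.60 to 1.16) and Fyn at 0.68 (0.37 to 0.98), and the semaphorin receptor genes Plxnd1 at 0.68 (0.41 to 0.94) and Plxna2 at 0.51 (0.28 to 0.74).

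Of the other ligands of these receptors, 2 of the 9 in the files were measured: Sema3g at 34.9 and 21.5 CPM (log2 ratio 0.70, 0.39 to 1.00) and Sema3c at 304 and 253 CPM (0.27, 0.17 to 0.36). Of the 8 regulators of Vegfa transcription 7 were measured, 5 of them above 0, beside 61.4% of all measured genes, with a median of 0.25. Epas1, a hypoxia-inducible factor, was at 683 and 532 CPM (0.36, 0.30 to 0.42). Among 10 endothelial genes induced by VEGF, 5 were measured, 3 above 0 and 2 below, beside the same 61.4%. They ran from Dll4, a Notch ligand, at 0.68 (0.39 to 0.96) to Adamts1, a metalloprotease, at -0.21 (-0.32 to -0.10). All 7 measured of 10 hypoxia-induced genes were above 0, beside 61.4% of all measured genes, with a median of 0.37. Among them the glucose transporter Slc2a1 was at 1200 and 928 CPM (0.37, 0.32 to 0.42). In microglia-like cells 6 of this list were measured, 5 of them below 0, with a median of -0.86. Over all measured genes of these cells the median was -0.04, and 46.6% lay above 0. Of the 6, 2 were 2-fold lower, beside 5.34% of all genes. The endothelial markers of these cells stood at 2023 CPM with the knock-out label and 6286 CPM in wild type. A link was not tested. In every list 0 of the measured genes were 2-fold apart in endothelial-like cells, beside 0.697% of all genes higher and 2.79% lower. Some listed genes under 20 CPM were further apart, in both directions. Among them Pgf was at -2.07 (-4.4 to -0.41) on 3 and 37 UMIs, and Plxna3 at 1.87 (-0.34 to 4.21) on 5 and 4 UMIs. The part of the background RNA given above in these values was not tested.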

How the data were processed

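The authors deposited raw UMI counts per gene and barcode, with lists of genes and barcodes (other, non-numeric content). Per the submitters' processing notes, Cell Ranger 2.0.1, STAR and Seurat 2.1.0 were used, with GRCm38.p5 and mm10 as builds; the notes give no order. Per the labels, tissue was digested for 30 min with 2 mg/ml collagenase at 37 °C. Members and gene lists were chosen with earlier results of these data known.

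Barcodes were kept from 300 detected genes upward, if mitochondrial UMIs were 10% or less. Both libraries were clustered together (scanpy 1.11.5, leidenalg 0.10.2, 2000 variable genes, 30 components, 15 neighbours, resolution 0.5). The variable genes left out the 8 members, Runx1 and the sex-linked genes Xist, Tsix, Ddx3y, Uty, Eif2s3y and Kdm5d. The scoring rule that names clusters was revised after clusters and member levels had been seen: an earlier form merged arterial and mural cells. Vessel cells were then clustered again, scaled within each library; that step was added after the data were seen, and resolution 1.0 was chosen after comparing it with 0.5 on member levels. Clusters without a clear type stayed unnamed, among them 138 and 438 cells (knock-out label before wild type), of which 33.7% had high doublet scores; doublets stayed in the main values. Named genes were the 8 members, the 3 genes most like each with at least 200 UMIs, and up to 4 members of each pathway list with the largest absolute ratio.

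CPM are UMIs summed over a class and divided by the class total, with exact Poisson intervals; log2 ratios are knock-out label over wild-type label, or 1 class over another, with exact conditional binomial intervals. A gene was measured at 20 CPM in 1 library and called at 2-fold. For shares, medians and percentiles over all genes and for counts and medians of gene lists, counts under 3 were put at 3. Ratios of single genes had no such floor, and none was given where a count was 0. Shares used cells thinned to 1500 UMIs; no cell was shallower. The interval calculation was tested on simulated data. Intervals leave out variation between animals and libraries.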

Additional observations from a re-analysis of the deposited data

Results flagged for a closer look

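Flt1, Kdr and Nrp1 had library ratios on opposite sides of 0 in the 2 largest classes. The log2 ratio of the library labelled knock-out over wild type was 0.50 in endothelial-like and -1.27 in microglia-like cells for Flt1, 0.16 and -1.58 for Kdr, and 0.26 and -0.72 for Nrp1. With 1 library per group the difference between the classes was not tested. The 9 endothelial markers in microglia-like cells stood at 2023 CPM in the library labelled knock-out and 6286 CPM in wild type. After background subtraction Nrp1 in microglia-like cells stood at 36.7 and 31.5 CPM, a log2 ratio of 0.22, and Flt1 lay below 0 in both libraries (-62.3 and -154.5 CPM), so that no ratio could be given.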

How the results depend on the processing

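No paired analysis was possible because each group has 1 library. Of 126 alternative values of the 10 library ratios, the receptor to ligand ratios and the shares of called genes, 107 stayed within the counting interval of the main value, or within 1.5 times a share, and 19 did not. For Flt1 in endothelial-like cells the log2 ratio was 0.41 centred on the median of all genes, 0.55 with every cell weighted equally, 0.55 with every cell thinned to 1500 UMIs, 0.46 with each library clustered on its own, 0.20 with background subtracted and 0.44 with endothelial marker UMIs as the denominator, an alternative chosen after seeing the data. Kdr was at 0.068 centred and -0.11 with background subtracted. Nrp1 was at 0.36 weighted equally, 0.35 thinned and 0.011 with background subtracted. Nrp2 in endothelial-like cells was at 0.74 and Nrp2 in microglia-like cells at -0.65 with each library clustered on its own, when 611 microglia-like cells labelled knock-out were named instead of 1354. Background subtraction used an upper estimate of the background and put Vegfc in endothelial-like cells at -0.35, and Nrp1 and Nrp2 in microglia-like cells at 0.22 and 0.40. It gave no ratio for Flt1 and Kdr in microglia-like cells, where a level fell under 5 CPM. The share of genes 2-fold higher in endothelial-like cells was 1.34% at a minimum of 5 CPM. With no minimum but 1 UMI it was 21.6%, and in microglia-like cells 20.3%. These no-minimum shares hold genes called by construction, since counts under 3 were put at 3. A gene with at most 3 UMIs in each library then counted as 2-fold higher, because the class totals labelled knock-out were smaller. All 146 alternative values of the 14 class ratios kept their sign; the vessel resolution of 0.5 was added after seeing the data. Of 42 alternative shares of cells, 31 lay within the main interval. Apart from the no-minimum shares, and where a clustering changed or a subtraction was made by construction, the cause was not tested. Ligand counts, above all the 84 Vegfa UMIs, limit what could be seen.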
